A study of Mus musculus with 5 samples.

Results

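The genes described here are 34 genes of cholesterol and fatty acid synthesis that are known targets or regulators of the SREBP transcription factors, chosen by name from the 56748 genes of the count table. Of these, 20 form the sterol arm and 14 the fatty acid arm. All 34 were found in the table and all passed the filter on low counts, which kept 17724 genes. RNA came from CD11b-positive brain cells, without the cerebellum, of mice that were 7 months old, and every mouse carried the 5xFAD transgenes, which produce amyloid plaques. The comparison set 2 libraries of 5xFAD mice (replicates 1 and 3) against 3 libraries (replicates 1, 2 and 3) of 5xFAD/Cd5l tg/wt mice, called Cd5l-transgenic below. Their transgene, with the mouse Cd5l sequence, is driven by the human PDGF-B promoter, which is widely used to drive transgenes in neurons. One label of the libraries names brain tissue while their titles and cell type name CD11b-positive cells, the isolation method is not stated, and wild-type mice were not analysed here.

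Cholesterol and fatty acids are made from cytosolic acetyl-CoA, and the enzymes of both routes share transcriptional control. SREBP precursors sit in the endoplasmic reticulum bound to the escort protein SCAP. When sterols are scarce SCAP carries them to the Golgi, where the proteases encoded by Mbtps1 and Mbtps2 release the active factor, and when sterols are plentiful INSIG proteins hold SCAP back. SREBP2, the product of Srebf2, mainly drives the sterol enzymes, while SREBP1, the product of Srebf1, mainly drives fatty acid synthesis together with the carbohydrate-responsive factor encoded by Mlxipl. The brain makes its own cholesterol, since lipoproteins of the blood do not cross the blood-brain barrier, and oligodendrocytes use much of it for myelin. CD5L, a secreted macrophage protein, was reported to enter fat cells through the scavenger receptor CD36 and to bind fatty acid synthase, the product of Fasn, a step that a transcript count does not read.

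SREBPs bind the sterol regulatory element and act with the factors NF-Y and Sp1, so promoters were searched on both strands for the sterol element core TCACNCCAC, the NF-Y box CCAAT, the Sp1 box GGGCGG and the E-box CACGTG. RefSeq windows on GRCm38.p6, from 250 bases before to 50 after a start, were matched for 27 of the 34 genes, 16 sterol and 11 fatty acid genes. The NF-Y box was found for 15 of the 16 sterol and 8 of the 11 fatty acid genes, against 41.1% of the 27025 genes of the promoter table and 42.7% of the 11972 tested genes matched there. The Sp1 box was found for 15 of 16 and 6 of 11, against 38.2% and 65.1%. The E-box was found for 4 of 16 and 2 of 11, against 8.09% and 11.1%. The sterol element core in this exact spelling was found for 1 sterol gene, Hmgcs1, and 1 fatty acid gene, Mlxipl, against 1.44% and 1.41%. A gene was counted when any of its windows held the motif. For Mlxipl the core lay in a different window from its NF-Y, Sp1 and E-boxes. A match is a run of letters and was not tested for binding. Counted over all 32851 windows instead of genes, the shares were 37.4% for the NF-Y box, 35.7% for the Sp1 box, 7.15% for the E-box and 1.24% for the sterol element core.

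The windows below belong to genes on which the results turn: Hmgcs1, the sterol gene with the exact core, Insig1, which differed most between the 5xFAD mice among the sterol genes matched after Hsd17b7, Nsdhl and Elovl5, whose genotype groups did not overlap, and Fasn, the reported partner of CD5L. Capitals mark the NF-Y box on either strand (CCAAT or, on the other strand, ATTGG), and in Hmgcs1 also the sterol element core, which begins 137 bases before the start and 39 bases from the nearest NF-Y box. Each is written 5′ to 3′ on the strand of the gene.
Hmgcs1 (chr13:119690101-119690400, plus strand): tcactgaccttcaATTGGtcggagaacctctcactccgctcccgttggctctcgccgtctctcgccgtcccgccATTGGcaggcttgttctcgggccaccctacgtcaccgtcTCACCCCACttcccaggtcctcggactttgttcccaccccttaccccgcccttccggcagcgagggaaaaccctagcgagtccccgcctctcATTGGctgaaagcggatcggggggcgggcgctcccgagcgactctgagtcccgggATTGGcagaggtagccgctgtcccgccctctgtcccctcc
Insig1 (chr5:28071162-28071461, plus strand): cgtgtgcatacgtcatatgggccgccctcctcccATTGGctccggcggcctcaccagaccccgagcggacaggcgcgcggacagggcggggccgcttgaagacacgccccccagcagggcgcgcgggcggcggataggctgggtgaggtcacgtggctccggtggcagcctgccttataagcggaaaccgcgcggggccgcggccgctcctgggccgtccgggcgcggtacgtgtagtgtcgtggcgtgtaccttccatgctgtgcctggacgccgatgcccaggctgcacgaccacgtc
Nsdhl (chrX:72918271-72918570, plus strand): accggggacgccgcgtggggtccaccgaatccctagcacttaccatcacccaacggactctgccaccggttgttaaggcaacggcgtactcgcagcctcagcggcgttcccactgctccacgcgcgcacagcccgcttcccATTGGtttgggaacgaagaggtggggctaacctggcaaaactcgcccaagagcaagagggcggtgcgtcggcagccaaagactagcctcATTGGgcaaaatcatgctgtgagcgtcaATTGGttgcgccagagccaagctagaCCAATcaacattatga
Elovl5 (chr9:77917115-77917414, plus strand): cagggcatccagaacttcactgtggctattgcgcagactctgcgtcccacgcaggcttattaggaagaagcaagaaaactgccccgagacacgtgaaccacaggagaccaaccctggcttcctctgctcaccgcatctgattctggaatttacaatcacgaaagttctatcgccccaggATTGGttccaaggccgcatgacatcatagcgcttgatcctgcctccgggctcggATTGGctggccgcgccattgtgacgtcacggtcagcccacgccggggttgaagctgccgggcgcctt
Fasn (chr11:120824498-120824797, minus strand): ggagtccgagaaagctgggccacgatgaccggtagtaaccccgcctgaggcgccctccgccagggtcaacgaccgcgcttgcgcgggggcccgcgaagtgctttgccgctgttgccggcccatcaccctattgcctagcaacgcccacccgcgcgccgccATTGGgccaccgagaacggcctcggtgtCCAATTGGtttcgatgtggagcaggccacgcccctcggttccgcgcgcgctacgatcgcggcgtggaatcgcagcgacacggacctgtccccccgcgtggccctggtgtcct
Hmgcs1 and Nsdhl held 4 NF-Y boxes each, Fasn 3, Elovl5 2 and Insig1 1.

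The libraries held 30798377 to 34794617 counts, and a single count was worth 0.0282 to 0.0339 CPM (counts scaled to a common library total with TMM factors). Cd5l stood at 1.52 and 0.254 CPM in the 5xFAD libraries and at 233.7, 334.9 and 194.8 CPM in the transgenic ones, as the labels have it. All 8 microglial markers were detected, with a summed level of 22970 and 22166 CPM in the 5xFAD pair against 22308 to 24262 CPM in the transgenic libraries. RNA of other cells was uneven. The 10 oligodendrocyte markers summed to 384.5 and 365.1 CPM in the 5xFAD pair against to 1150, 4583 and 394.3 CPM in Cd5l-transgenic replicates 1, 2 and 3, and all 10 were highest in replicate 2. The 10 choroid plexus and ependymal markers summed to 2854 CPM in 5xFAD replicate 3 and to between 267.2 and 546.9 CPM elsewhere, and all 10 were highest in that library. The 8 markers of plaque-associated microglia summed to 20945 CPM in 5xFAD replicate 1 but 12716 in replicate 3, with 12517 to 13391 CPM in the transgenic libraries, and all 8 were highest in 5xFAD replicate 1. No marker of these lists was at 0 in any library. In bulk RNA, fewer cells of a type and less RNA per cell cannot be told apart.

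Per length, the fatty acid genes spanned a wider range of levels than the sterol genes. Scd2, a stearoyl-CoA desaturase that makes monounsaturated fatty acids, was the highest of the 34 at 99.2 CPM per kilobase (mean of 5 libraries), rank 374 of the 17724 tested genes. Mlxipl (51.3 CPM per kilobase, rank 751) and Acly, the ATP citrate lyase that supplies cytosolic acetyl-CoA (50.6, rank 762), came next and lay within each other's range over libraries. Fads1, the delta-5 desaturase of polyunsaturated fatty acids, stood at 23.4 and the elongase Elovl5 at 19.9 CPM per kilobase. The SREBP genes were close to each other, with Srebf2 at 18.8 and Srebf1 at 17.2 CPM per kilobase, and their single libraries overlapped. In the sterol arm Insig1 (15.5), the sterol isomerase Ebp (14.9) and Hmgcs1 (13.1 CPM per kilobase), which makes HMG-CoA, followed Srebf2. Sqle, the squalene epoxidase and a slow step of the route, was lower, at 2.34 CPM per kilobase. The lowest fatty acid genes were Me1, Acacb, Elovl6 and Acss2, at 1.15, 0.988, 0.884 and 0.847 CPM per kilobase. Fdps, which makes farnesyl diphosphate, was the lowest of all at 0.21 CPM per kilobase, rank 16109, from only 19 to 37 counts per library.

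**Figure D1:**
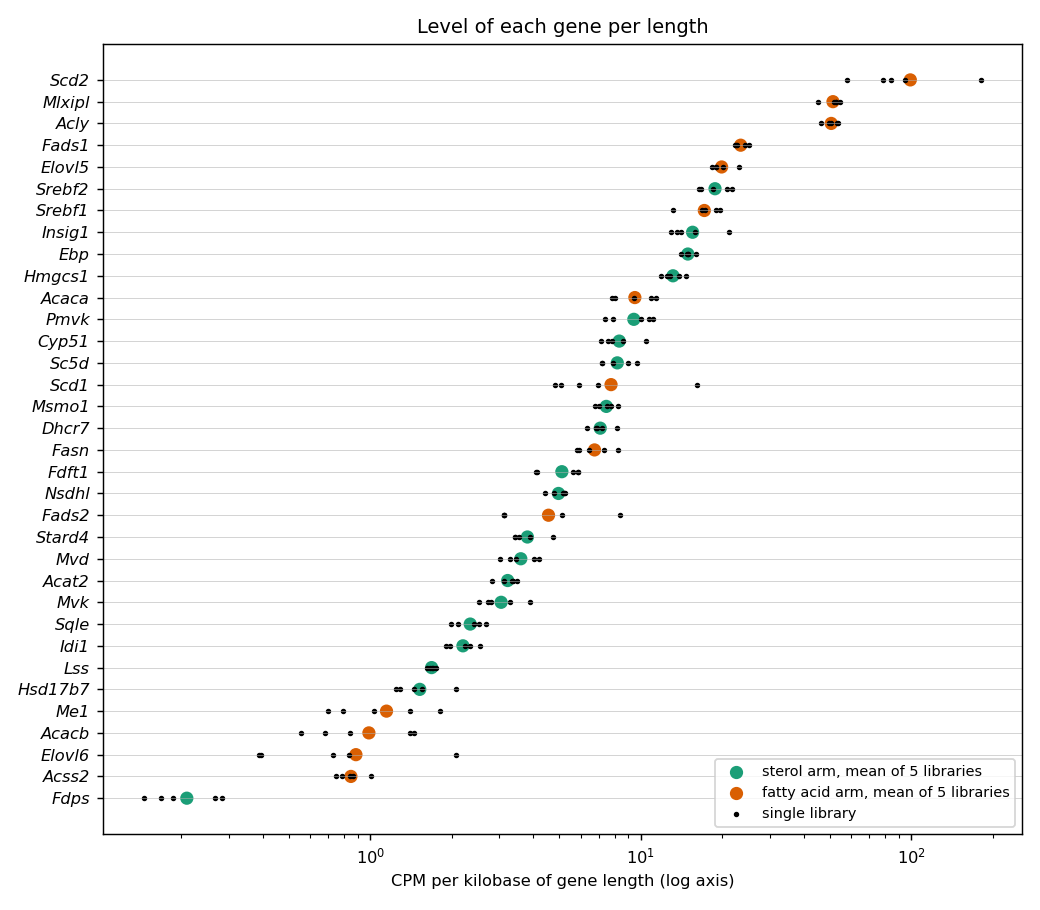
Level of each gene in CPM per kilobase of gene length on a log axis. Large points are the mean of 5 libraries (green, sterol arm; orange, fatty acid arm) and small points single libraries; Scd2 is highest at 99.2 and Fdps lowest at 0.21.

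No gene of either arm passed the test between the genotypes. In the edgeR quasi-likelihood test 0 of 34 genes were called, with adjusted p of at least 0.999, and the test called 0% of all 17724 genes, Cd5l included (adjusted p = 0.765). At an unadjusted p under 0.05 there were also 0 of 34, against 2.68% of all genes (1.22% higher and 1.46% lower). The DESeq2 Wald test and limma-voom called 0 of 34 as well, against 0.0621% and 0% of all genes, and each had 0 of 34 at an unadjusted p under 0.05, against 4.06% and 3.12% of all genes. Sterol genes had log2 fold changes (Cd5l-transgenic minus 5xFAD) from -0.23 to 0.24 with a median of -0.05, and fatty acid genes from -0.60 to 0.79 with a median of 0.03, beside a median of -0.03 over all genes tested. Below 0 lay 16 of 20 sterol genes and 6 of 14 fatty acid genes, against 57.1% of all genes, and above 0 lay 4 and 8, against 42.9%. With size factors of DESeq2 or upper-quartile factors the sterol count was 13 or 12 of 20, beside 51.9% and 52.1% of all genes. As the test did not call Cd5l either, a count of 0 does not show that these genes were unchanged.

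**Figure D2:**
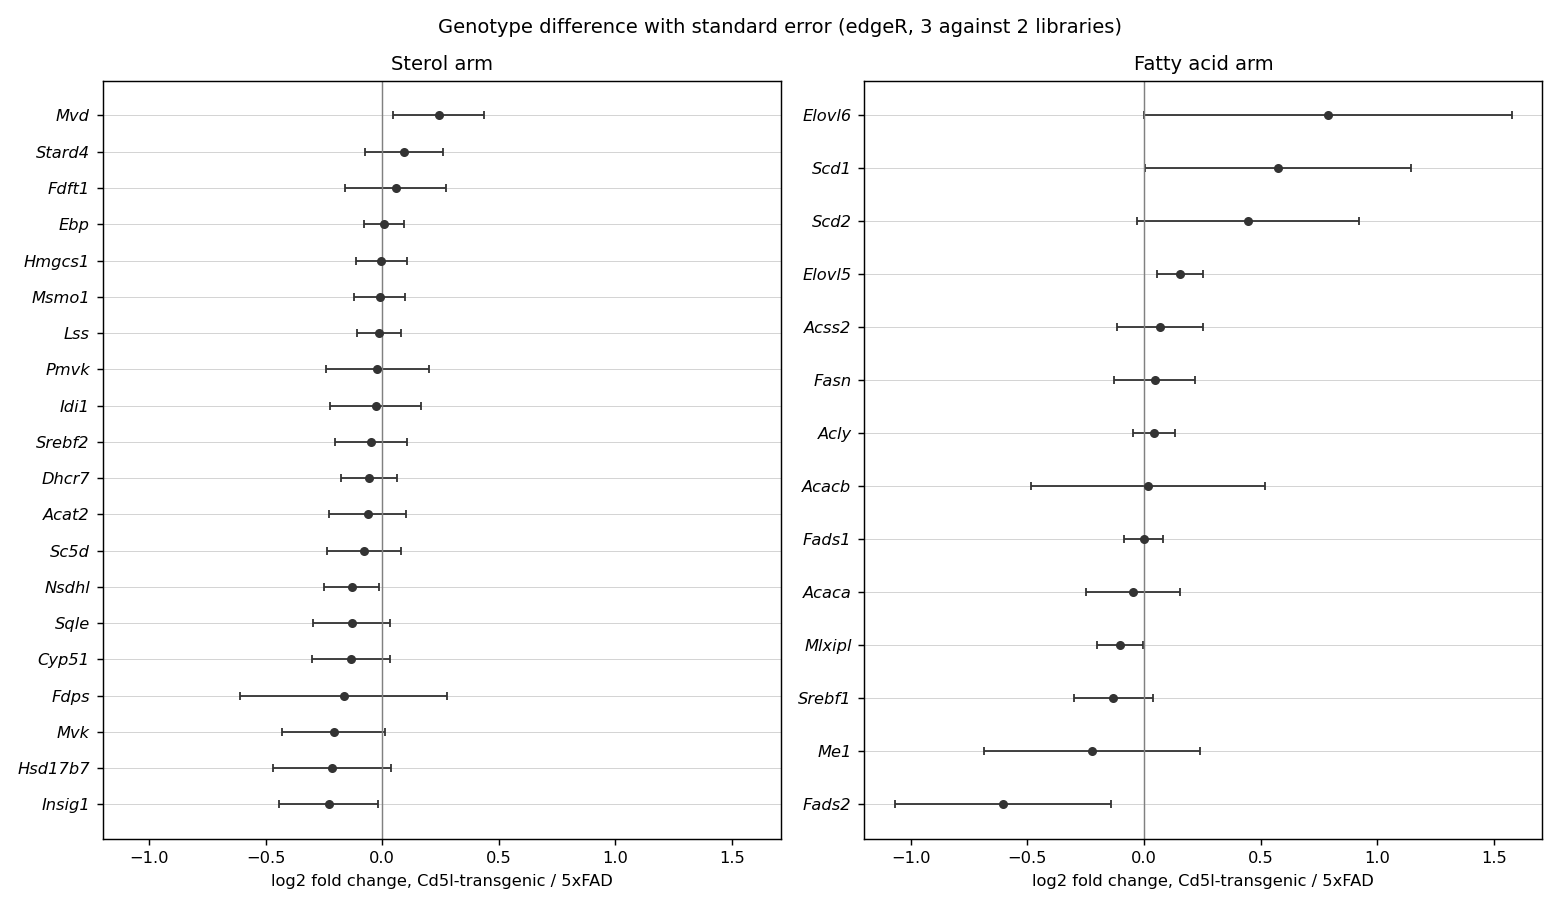
Log2 fold change of each gene, Cd5l-transgenic over 5xFAD, with its standard error (edgeR, 3 against 2 libraries), sorted within each arm. Sterol genes lie between -0.23 and 0.24; Elovl6 (0.79) and Fads2 (-0.60) mark the ends of the fatty acid arm, with wide errors.

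Groups did not overlap for 2 of the 34 genes, 1 in each direction, where 7.2% of all tested genes were higher and 8.69% lower in every transgenic library. The share of 1 in 34 in each direction is below that background. Elovl5 (ENSMUSG00000032349, chromosome 9, 77824646 to 77891801, GRCm39), which elongates polyunsaturated fatty acids, stood at 64.4 and 66.8 CPM in the 5xFAD pair against 70.9, 81.3 and 66.9 CPM in Cd5l-transgenic replicates 1, 2 and 3. The lowest transgenic value was nearly level with the higher 5xFAD value, and replicate 2 was highest. Its log2 fold change was 0.16 (SE 0.10, adjusted p = 0.999 by edgeR), and it was 0.084 without Cd5l-transgenic replicate 2. Nsdhl (ENSMUSG00000031349, chromosome X, 71962163 to 72002120), a dehydrogenase that removes the methyl groups of lanosterol together with its partner enzymes, stood at 15.0 and 14.9 CPM in the 5xFAD pair against 13.6, 14.7 and 12.6 CPM in transgenic mice. Here too the nearest values of both groups were almost equal. The log2 fold change of Nsdhl was -0.13 (SE 0.12), and it was -0.056 without Cd5l-transgenic replicate 3.

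**Figure D3:**
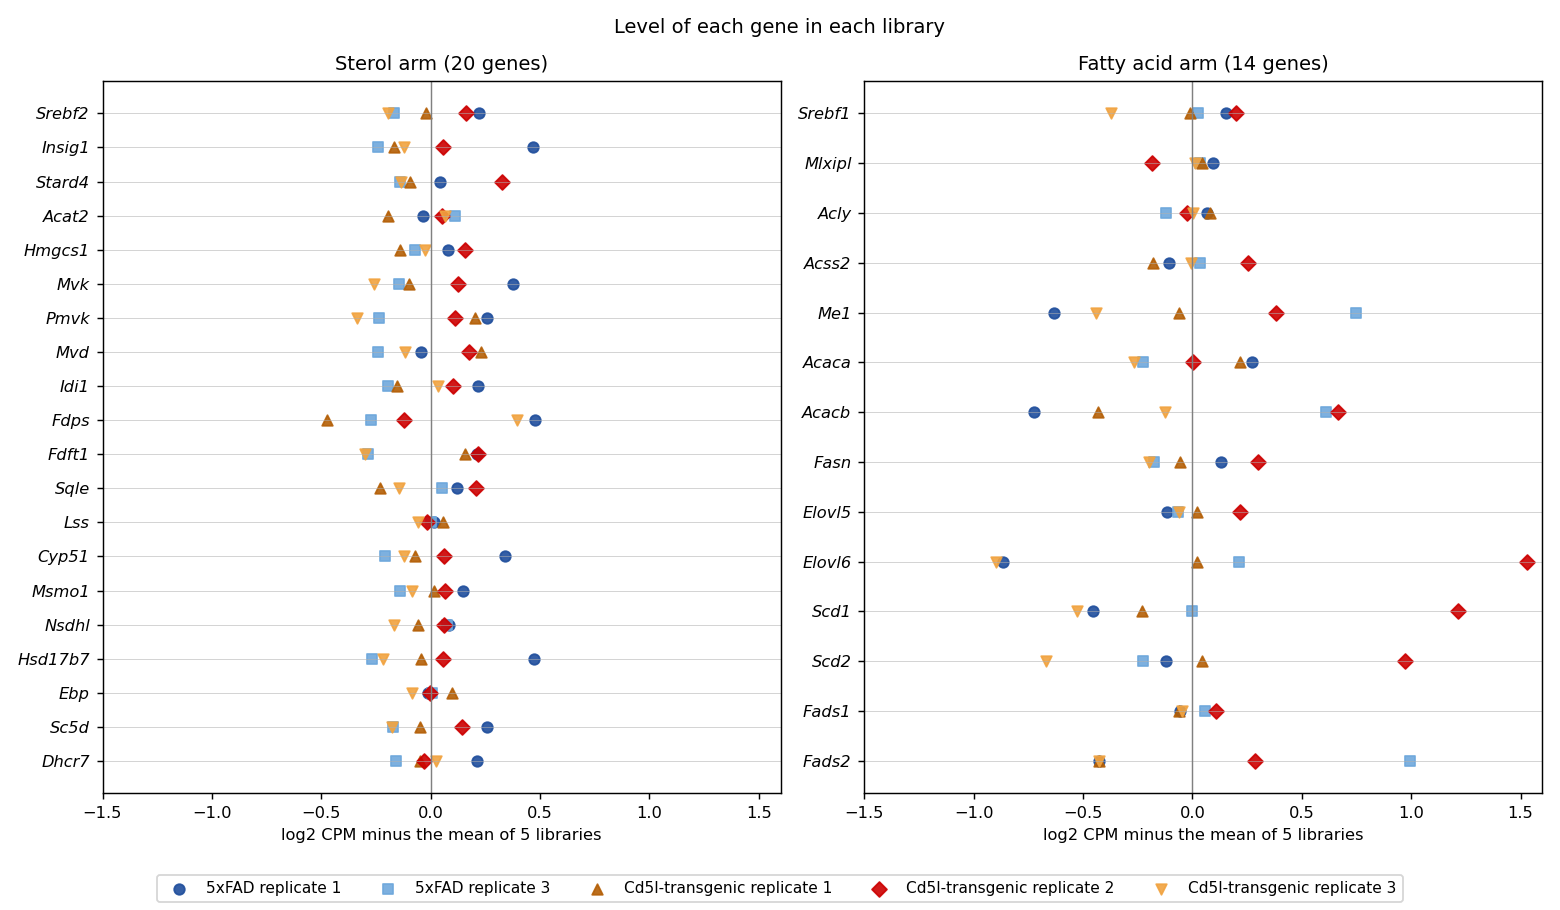
Log2 CPM of each gene in each library minus its mean over the 5 libraries. In the sterol panel 5xFAD replicate 1 (dark blue circles) is the highest library for 12 of 20 genes; in the fatty acid panel Cd5l-transgenic replicate 2 (red diamonds) is the highest for 9 of 14.

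Regulators of the route were expressed in every library with no separation by genotype. Srebf2 (chromosome 15, 82031382 to 82089580) stood at 156.2 and 119.4 CPM in the 5xFAD pair against 132.2, 150.2 and 117.4 CPM in transgenic mice, a log2 fold change of -0.05 (SE 0.15). Srebf1 (chromosome 11, 60089915 to 60113407) stood at 106.5 and 97.7 CPM in the 5xFAD pair against 95.2, 110.2 and 74.1 CPM in transgenic mice. Cd5l-transgenic replicate 2 was its highest and replicate 3 its lowest library, so the transgenic mice spanned the 5xFAD values. Insig1 (chromosome 5, 28276361 to 28283660), whose product holds SCAP back and which is itself an SREBP target, stood at 65.4 and 40.1 CPM in the 5xFAD pair against 42.1, 49.2 and 43.5 CPM in the transgenic libraries. Only 5xFAD replicate 1 stood apart, and the other 5xFAD mouse was the lowest of all. Mlxipl (chromosome 5, 135118744 to 135167236) was the steadiest regulator, at 302.5 and 290.6 CPM in the 5xFAD pair against 292.1, 249.8 and 286.4 CPM in transgenic mice. Its lowest library was Cd5l-transgenic replicate 2, and its log2 fold change of -0.10 (SE 0.10) was -0.023 without that library.

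The mevalonate and isoprenoid steps, which lead from acetyl-CoA to farnesyl diphosphate, had log2 fold changes on both sides of 0, none past the test. Hmgcs1 stood at 63.7 and 57.3 CPM in the 5xFAD pair against 54.6, 67.2 and 59.1 CPM in transgenic mice, with means of 60.5 ± 4.52 (SD, n = 2) and 60.3 ± 6.40 (SD, n = 3). Mvd, the decarboxylase that forms isopentenyl diphosphate, had the largest positive fold change of the sterol arm. It stood at 6.44 and 5.62 CPM in the 5xFAD pair against 7.79, 7.50 and 6.11 CPM in transgenic mice, and the groups overlapped through replicate 3 (log2 fold change 0.24, SE 0.19). Mvk, the mevalonate kinase, stood at 10.4 and 7.28 CPM in the 5xFAD pair against 7.50, 8.78 and 6.72 CPM in transgenic mice, so 5xFAD replicate 1 alone lay above the transgenic range. Fdps stood at 1.19 and 0.705 CPM in the 5xFAD pair against 0.614, 0.784 and 1.12 CPM in transgenic mice. These are 35, 25, 19, 25 and 37 counts, and the groups cover the same range. The other genes of these steps, Acat2, Pmvk and Idi1, had log2 fold changes from -0.06 to -0.02. Acat2 has a close copy, Acat3, with 19 to 41 counts per library against 221 to 313 for Acat2, and how the authors assigned reads shared by the copies is not stated.

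Squalene and the steps after lanosterol, which end in cholesterol, had no gene past the test either. Sqle stood at 14.0 and 13.3 CPM in the 5xFAD pair against 11.0, 14.9 and 11.6 CPM in transgenic mice, and replicate 2 exceeded both 5xFAD mice (log2 fold change -0.13, SE 0.16). Hsd17b7, a keto-reductase of sterol demethylation, stood at 10.6 and 6.35 CPM in the 5xFAD pair against 7.40, 7.94 and 6.57 CPM in transgenic mice. Here 5xFAD replicate 1 was the highest and 5xFAD replicate 3 the lowest of the 5 libraries. Lss, the lanosterol synthase, was the most even of the 34 genes, with a highest library 1.08 times the lowest. Ebp was nearly as even, at 1.14 times. Fdft1, Cyp51, Msmo1, Sc5d and Dhcr7 had log2 fold changes from -0.13 to 0.06, and the sterol transporter gene Stard4 one of 0.09. Fdft1 (3351 counts in all) lies opposite the cathepsin gene Ctsb (1261860 counts) and Cyp51 (5865) opposite Akap9 (17589), and whether counting used strand is not stated, so reads of opposite genes could not be told apart.

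Most sterol genes were higher in 1 of the 5xFAD mice than in the other. Of the 20, 18 were higher in 5xFAD replicate 1 than in 5xFAD replicate 3, where 48.7% of all tested genes were, and the median log2 ratio of these mice was 0.38. Acat2 and Ebp were the exceptions. For 16 of the 20 the difference between the 5xFAD mice was larger in size than the genotype difference, and over all tested genes detected in both mice the share was 66.5%. The largest ratios were those of Fdps (0.75), Hsd17b7 (0.74) and Insig1 (0.71 on the log2 scale). Across the 5 libraries, 12 sterol genes were highest in 5xFAD replicate 1, against 24.1% of all genes. None was lowest there, against 21.5% of all genes. The lowest library was 5xFAD replicate 3 for 8 genes and Cd5l-transgenic replicate 3 for another 8, against 16.4% and 19.1% of all genes. Sums of the arm were 668.5 and 527.7 CPM in the 5xFAD pair against 566.4, 627.5 and 532.8 CPM in the transgenic libraries, so both transgenic extremes lay inside the 5xFAD range. The markers of plaque-associated microglia were highest in the same library, 5xFAD replicate 1, and their part in these values was not tested.

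The direction of the sterol arm turned with the 5xFAD mouse that was left out. Without 5xFAD replicate 1 the median log2 fold change was 0.16 with 4 of 20 genes below 0, against 51.8% of all genes in that fit. Without 5xFAD replicate 3 the median was -0.20 with 16 of 20 below 0, against 51.3% of all genes. No sterol gene passed the adjusted threshold in either fit, which leaves 1 5xFAD library assumed to vary like the other group. Without 5xFAD replicate 3, Insig1, Cyp51 and Hsd17b7 had an unadjusted p under 0.05, each lower with the transgene, where 4.86% of all genes in that fit were below it in either direction, and Insig1 stood at -0.54 (adjusted p = 0.621 by edgeR). Insig1 was at 0.17 without 5xFAD replicate 1. Of the 34 genes, 29 changed sign without some library and 5 did not: Mvd, Sqle, Nsdhl, Mlxipl and Elovl5.

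Among the fatty acid genes Elovl6, Scd1 and Scd2 had the widest range over the 5 libraries (highest over lowest 5.38, 3.35 and 3.12), and leaving out 1 transgenic mouse turned the direction of all 3. Scd2 (chromosome 19, 44282113 to 44295303) stood at 461.0 and 428.8 CPM in the 5xFAD pair against 517.9, 985.9 and 315.6 CPM in Cd5l-transgenic replicates 1, 2 and 3. Scd1 (chromosome 19, 44382894 to 44396318), its neighbour and close relative, stood at 24.8 and 33.9 CPM in the 5xFAD pair against 29.0, 78.7 and 23.5 CPM in transgenic mice. Elovl6 (chromosome 3, 129326004 to 129432144), which elongates palmitate to stearate, the substrate of these desaturases, was singled out after its values were seen and stood at 2.54 and 5.36 CPM in the 5xFAD pair against 4.69, 13.4 and 2.48 CPM in transgenic mice. In each case replicate 2 was far above the rest and replicate 3 was the lowest of the 5 libraries, so the transgenic group lay on both sides of the 5xFAD group. Of the 14 fatty acid genes 9 were highest in replicate 2, against 21.2% of all tested genes, and 1, Mlxipl, was lowest there, against 27.7%. Replicate 2 exceeded the mean of the other 4 libraries 2.29-fold for Scd2, 2.83-fold for Scd1 and 3.55-fold for Elovl6, a rise of more than 2-fold that 6.11% of all tested genes showed. The log2 fold changes were 0.45 (SE 0.48), 0.57 (SE 0.57) and 0.79 (SE 0.79), and without Cd5l-transgenic replicate 2 they were -0.081, -0.15 and -0.13. The summed oligodendrocyte markers, all 10 of them detected, were also highest in that library (4583 CPM, with 365.1 to 1150 CPM elsewhere). Markers of other cells peaked there too: 8 of 8 endothelial markers (1128 CPM summed, with 566.0 to 630.6 CPM elsewhere), 7 of 8 neuronal, 6 of 8 mural and fibroblast and 4 of 8 astrocyte markers. The part of any of these in the values was not tested. Scd3, another desaturase of the cluster, had 45 counts in that library and 2 to 10 in the others, and reads that the Scd genes share may have been assigned to any of them.

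A second set of fatty acid genes, singled out after their values were seen, was high in 5xFAD replicate 3. Fads2 (chromosome 19, 10040129 to 10079110), the delta-6 desaturase that opens the polyunsaturated route, stood at 10.3 and 27.5 CPM in the 5xFAD pair against 10.2, 16.8 and 10.3 CPM in transgenic mice. Me1, the malic enzyme that supplies NADPH, stood at 2.68 and 6.97 CPM in the 5xFAD pair against 3.98, 5.39 and 3.06 CPM in transgenic mice. Acacb, the acetyl-CoA carboxylase at mitochondria, stood at 5.35 and 13.5 CPM in the 5xFAD pair against 6.56, 14.0 and 8.11 CPM in transgenic mice. Fads2 and Me1 were highest in 5xFAD replicate 3 with Cd5l-transgenic replicate 2 second, and Acacb had these libraries in the opposite order. Over all tested genes the highest library was 5xFAD replicate 3 for 21.3%. The log2 ratio of 5xFAD replicate 1 to replicate 3 was -1.42 for Fads2, -1.38 for Me1 and -1.34 for Acacb, larger in size than the genotype differences of -0.60 (SE 0.46), -0.22 (SE 0.46) and 0.02 (SE 0.50). Without 5xFAD replicate 3 the log2 fold changes were 0.27, 0.63 and 0.83, and without 5xFAD replicate 1 they were -1.14, -0.75 and -0.50. Without Cd5l-transgenic replicate 2 they were -0.87, -0.44 and -0.35. Without 5xFAD replicate 1, Fads2 alone of the 34 had an unadjusted p under 0.05, where 6.68% of all genes in that fit did, and its adjusted p was 0.381 by edgeR. The summed choroid plexus and ependymal markers, all 10 of them detected, were highest in the same library (2854 CPM, with 267.2 to 546.9 CPM elsewhere). Also highest there were 3 of 8 astrocyte, 2 of 8 mural and fibroblast, 1 of 4 oligodendrocyte precursor and 1 of 8 microglial markers. The astrocyte sum was highest in Cd5l-transgenic replicate 2 (437.7 CPM, against 323.4 CPM in 5xFAD replicate 3). The part of any of these cells in the values was not tested.

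**Figure D4:**
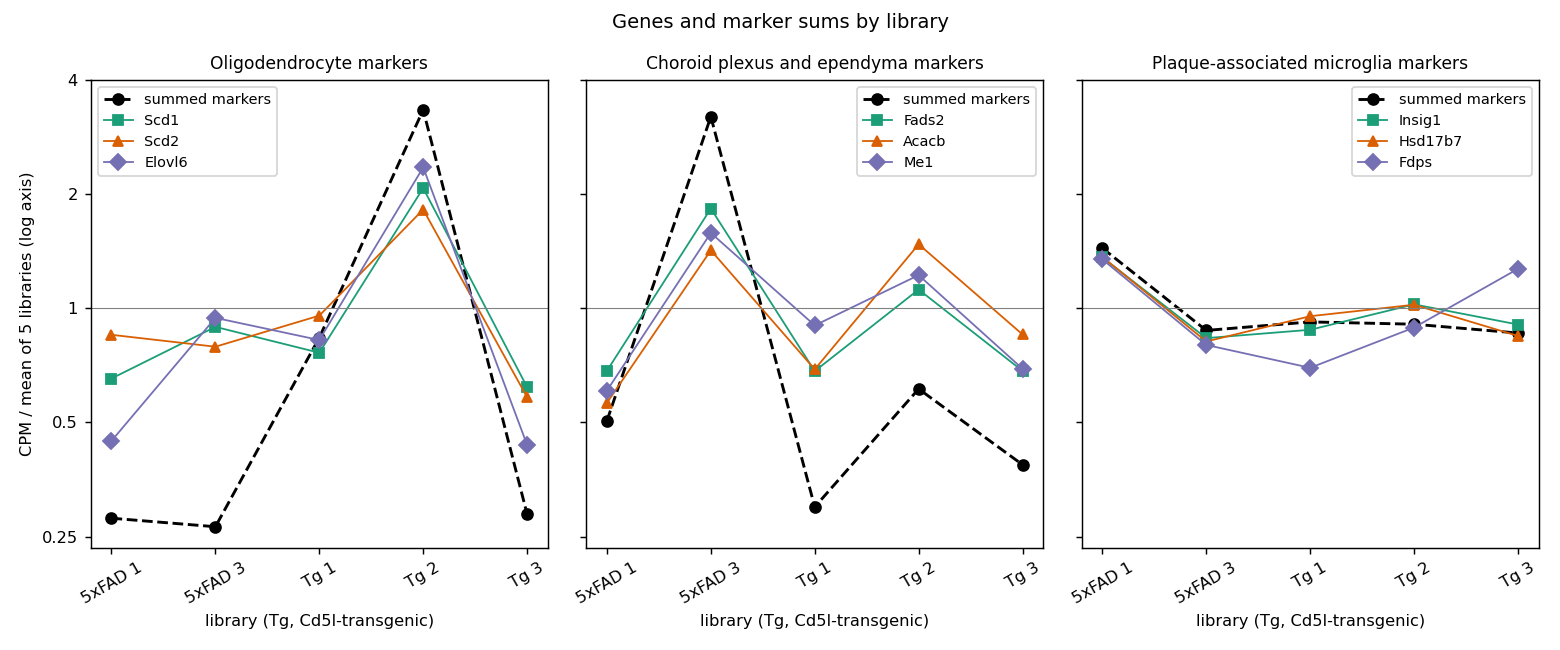
Level of each gene and summed level of each marker list in each library, divided by the mean of the 5 libraries, on a log axis. Scd1, Scd2, Elovl6 and the oligodendrocyte markers peak in Cd5l-transgenic replicate 2 (left), as do endothelial and most neuronal markers, not drawn. Fads2, Me1, Acacb and the choroid plexus markers are high in 5xFAD replicate 3 (middle), but Acacb is highest in Cd5l-transgenic replicate 2. Insig1, Hsd17b7, Fdps and the plaque-associated markers are high in 5xFAD replicate 1 (right), and Fdps also in Cd5l-transgenic replicate 3. Elovl6 and the middle genes were singled out after their values were seen. The right genes were picked for the largest differences between the 5xFAD mice, so their high library follows from the choice.

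The remaining fatty acid genes were steadier. Fasn (ENSMUSG00000025153, chromosome 11, 120696672 to 120715373) stood at 80.1 and 64.8 CPM in the 5xFAD pair against 70.4, 90.1 and 63.7 CPM in Cd5l-transgenic replicates 1, 2 and 3. The means were 72.4 ± 10.8 CPM (SD, n = 2) and 74.7 ± 13.7 CPM (SD, n = 3), and the transgenic mice enclosed both 5xFAD mice. Its log2 fold change was 0.05 (SE 0.17, adjusted p = 0.999 by edgeR), and -0.098 without Cd5l-transgenic replicate 2. Fads1 stood at 108.2 and 117.0 CPM in the 5xFAD pair against 107.6, 121.0 and 109.0 CPM in transgenic mice, an SE of 0.08 that was the smallest of the 34 genes. Fads1 did not share the high value of its neighbour Fads2 in 5xFAD replicate 3. Acly, Acaca, the cytosolic acetyl-CoA carboxylase, and Acss2, the acetyl-CoA synthetase, had log2 fold changes of 0.04, -0.05 and 0.07. Acaca stood at 193.8 and 137.1 CPM in the 5xFAD pair against 186.2, 161.0 and 133.2 CPM in Cd5l-transgenic replicates 1, 2 and 3. Its 5xFAD mice differed in the direction of most sterol genes, but Cd5l-transgenic replicate 1 was nearly level with 5xFAD replicate 1. Acss2 (1388 counts in all) lies opposite Gss (1486 counts), and Srebf1 (15511) opposite Rai1 (12946).

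The sum of the fatty acid arm was 1649 and 1544 CPM in the 5xFAD pair against 1684, 2200 and 1372 CPM in the transgenic libraries, and Scd2 alone made up 23.0% to 44.8% of it. The ratio of fatty acid to sterol sums was lowest in 5xFAD replicate 1, at 2.47, and highest in Cd5l-transgenic replicate 2, at 3.51, with 2.93 in 5xFAD replicate 3 and 2.97 and 2.57 in the other transgenic mice. Their means were 2.70 ± 0.324 (SD, n = 2) and 3.02 ± 0.467 (SD, n = 3), a difference within the spread. The median level of the sterol genes, as log2 CPM centred on the 5 libraries, was highest in 5xFAD replicate 1 (0.21) and lowest in 5xFAD replicate 3 (-0.16). That of the fatty acid genes was highest in Cd5l-transgenic replicate 2 (0.27) and lowest in Cd5l-transgenic replicate 3 (-0.23), with the 5xFAD mice between them. Over all genes the same median ran from -0.017 to 0.011. TMM scaling holds that median near 0, so it does not show how far the median of a small set varies. With Scd1, Scd2, Elovl6, Fads2, Acacb and Me1 set aside, a choice made after their values were seen, the other 8 fatty acid genes summed to 1143 and 1028 CPM in the 5xFAD pair against 1112, 1085 and 1009 CPM in transgenic mice.

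**Figure D5:**
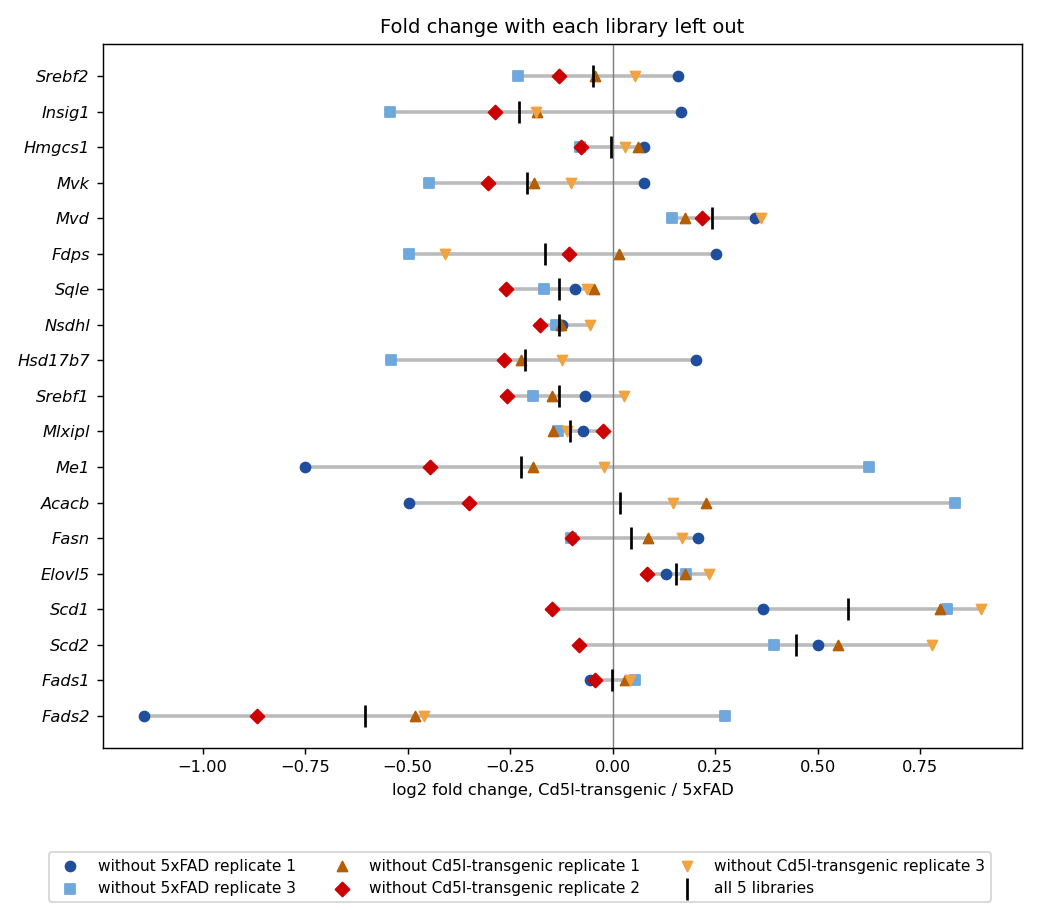
Log2 fold change of the 19 genes given by library, with all 5 libraries (black bar) and with each library left out (coloured points). Insig1 and Hsd17b7 cross 0 without 5xFAD replicate 1, Scd1 and Scd2 cross 0 without Cd5l-transgenic replicate 2, and Fads2 crosses 0 without 5xFAD replicate 3.

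Other genes of these routes did not pass the test either. Groups did not overlap for Acat1 among 19 further sterol genes, for Lpin1 and Mlx among 19 further lipogenic genes, and for Smpdl3a among 8 LXR genes. Each was lower in every transgenic library, as 8.69% of all tested genes were, so these counts are near that share. In each list 0 genes were higher in every transgenic library, against 7.2% of all tested genes. Among 20 further sterol genes 19 were tested, of which 15 lay below 0, against 57.1% of all tested genes. Of these 19 sterol genes 0 passed, and their median log2 fold change was -0.04. Scap was even, from 73.9 to 85.4 CPM over the 5 libraries. Acat1, the mitochondrial thiolase, had the smallest unadjusted p of that list (log2 fold change -0.15, SE 0.08). Among 20 further lipogenic genes 19 were tested, of which 12 lay below 0 (57.1% of all tested genes did) and 0 passed, with a median of -0.02. Lpin1, a phosphatidate phosphatase gene, stood at 90.3 and 91.2 CPM in the 5xFAD pair against 83.6, 78.9 and 82.1 CPM in transgenic mice (log2 fold change -0.15, SE 0.06, adjusted p = 0.999 by edgeR). Scd3 had the next smallest p (log2 fold change 2.47, SE 1.19) and rested on the library already named. Of the 8 genes of the sterol-sensing LXR receptors 5 lay below 0 (57.1% of all tested genes did) and 0 passed, with a median of -0.03. Nr1h3, the LXR alpha gene and an activator of Srebf1, stood at 1.39 and 2.14 CPM in the 5xFAD pair against 2.72, 2.98 and 2.03 CPM in transgenic mice, and Smpdl3a, an LXR target, had a log2 fold change of -0.23 (SE 0.10).

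Cd36, which encodes the reported receptor for CD5L, and Prkaa2, which is not part of the action described above, were also examined. Only Prkaa2 separated by genotype, without a call. Cd36 stood at 7.93 and 11.3 CPM in the 5xFAD pair against 11.4, 6.18 and 16.0 CPM in transgenic mice, and the groups overlapped. Prkaa2, a catalytic subunit of the AMP-activated kinase, which phosphorylates and restrains the acetyl-CoA carboxylases, stood at 11.1 and 9.45 CPM in the 5xFAD pair against 6.04, 6.62 and 6.84 CPM in transgenic mice. Each of the 3 transgenic values was lower than either 5xFAD value, as for 8.69% of all tested genes. Its log2 fold change was -0.66 (SE 0.16), with an unadjusted p of 0.00636, where 1.46% of all genes were lower at an unadjusted p under 0.05, and an adjusted p of 0.999 by edgeR. It was listed with earlier results of these data known, and other subunits were not examined.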

How the data were processed

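RNA of CD11b-positive brain cells was sequenced as 1 library per mouse, 2 of 5xFAD and 3 of 5xFAD with the Cd5l transgene, grouped from the titles. The authors deposited 1 table of unnormalised whole-number counts for 56748 Ensembl genes. Gene lengths are the bases listed in the deposited table. The submitters' processing notes name GRCm39 (mm39) as the build. Neither the aligner nor the counting tool, annotation release or strandedness is given in the sources used here. Of the column names, that of Cd5l-transgenic replicate 3 has its letter pairs in the opposite order and was matched by its letters and number.

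Counts were fitted over all 17724 genes kept by filterByExpr in edgeR 4.0.16 (R 4.3.3), with TMM factors (0.952 to 1.02) and the robust quasi-likelihood test, 2-sided, adjusted by Benjamini-Hochberg over all genes (threshold 0.05). The standard error is the size of the log2 fold change divided by the square root of F. CPM are scaled by TMM, and CPM per kilobase divides them by the deposited gene length. Alternatives were size factors of DESeq2 1.42.0 and upper-quartile factors in edgeR, the DESeq2 Wald test, limma-voom (3.58.1) with sample weights, no filter, at least 5 CPM in 2 samples, a block on replicate number, leaving out each library, and leaving out both 5xFAD replicate 3 and Cd5l-transgenic replicate 2. Scripts were tested on simulated counts.

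The genes and lists were chosen with earlier results of these data known. Values in every library are given for the regulators, Fasn, Hmgcs1, Sqle and the desaturases, for genes whose groups did not overlap, for the 4 genes of each arm with the smallest unadjusted p, and for the 3 of each arm with the largest difference between the 5xFAD mice; other genes are given by range, or named because a count or a limit turns on them. Promoter windows are those of RefSeq on GRCm38.p6, a different build from that of the counts.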

Additional observations from a re-analysis of the deposited data

How the results depend on the processing

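With 2 mice against 3, the spread between mice limited the precision. Fdps also rested on only 19 to 37 counts per library, and the cause of its low counts was not tested. None of the 34 genes passed in any of the 13 alternatives. Of all genes tested, 9 passed as higher and 2 as lower in the DESeq2 Wald test, 1 as lower with no filter, 9 as lower without 5xFAD replicate 1, and 1 in each direction without 5xFAD replicate 3. The lowest adjusted p was 0.0533 by edgeR, for Insig1 without both 5xFAD replicate 3 and Cd5l-transgenic replicate 2, a fit that leaves 1 5xFAD library assumed to vary like the transgenic ones. There 36 of all genes passed as higher and 58 as lower, the sterol median was -0.26, 6 sterol genes were lower at an unadjusted p under 0.05 (6.70% of all genes were below it in either direction), and Me1 (0.40), Fasn (-0.25), Scd2 (-0.14), Fads1 (0.010), Fads2 (0.0062), Stard4 (-0.15), Fdft1 (-0.26) and Acly (-0.018) took the opposite sign. Among the 19 genes given by library, signs also turned for Hmgcs1 and Fads1, both near 0, with DESeq2 size factors (0.0154 and 0.0187), upper-quartile factors (0.0141 and 0.0161), the DESeq2 Wald test (0.0155 and 0.0186) and the 5 CPM filter (0.0298 and 0.0311), for Fads1 with no filter (0.00065), and in limma-voom for Acacb (-0.21) and Fasn (-0.00042). The 5 CPM filter tested 33 of the 34 genes. The cause was not tested.

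Leaving out 1 library at a time, the sterol median ranged from -0.20 to 0.16 and the fatty acid median from -0.09 to 0.16. Log2 fold changes ranged from -0.23 to 0.16 for Srebf2, -0.54 to 0.17 for Insig1, -0.081 to 0.075 for Hmgcs1, -0.45 to 0.076 for Mvk, -0.50 to 0.25 for Fdps, -0.54 to 0.20 for Hsd17b7 and -0.26 to 0.029 for Srebf1. In the fatty acid arm they ranged from -0.75 to 0.63 for Me1, -0.50 to 0.83 for Acacb, -0.10 to 0.21 for Fasn, -0.15 to 0.90 for Scd1, -0.081 to 0.78 for Scd2, -0.055 to 0.055 for Fads1 and -1.14 to 0.27 for Fads2.

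The groups share only replicate numbers 1 and 3, which name the mice. Deviations of same-numbered libraries correlated at 0.129 for number 1 and -0.240 for number 3. Those of differently numbered libraries correlated at 0.240 and -0.129. The group without number 2 holds only numbers 1 and 3, so its deviations mirror each other and the same values return with opposite sign. These correlations therefore cannot decide whether same-numbered mice belong together. Number 2 occurs only in the transgenic group, so with a block on replicate number that library does not enter the genotype difference. With the replicate block 0 genes passed and Srebf1 was lower at an unadjusted p under 0.05 (2.39% of all genes were below it in either direction). The sterol median was -0.10 with 18 of 20 genes below 0, and the fatty acid median -0.11 with 12 of 14, against 54.8% of all genes. Acacb (-0.23), Fasn (-0.10), Scd1 (-0.15), Scd2 (-0.14), Elovl6 (-0.12), Acss2 (-0.057), Stard4 (-0.066) and Fdft1 (-0.035) turned sign. Simply leaving out Cd5l-transgenic replicate 2 also put Acacb (-0.35), Fasn (-0.098), Scd1 (-0.15), Scd2 (-0.081), Elovl6 (-0.13), Acss2 (-0.043) and Stard4 (-0.056) below 0. The effect of the block therefore cannot be told apart from that of losing this library.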
